A study of Mus musculus with 3 samples.

Results

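Surface receptor and sort marker genes of mouse haematopoietic stem cells were read on 3 arrays, 1 per gamma radiation dose. The set was given as a list of 9 names, which stand for 8 genes because CD150 is the protein made from Slamf1. All 8 (Kit, Slamf1, Flt3, Cd48, Cd34, Procr, Esam and Tek) were found among the 23185 named genes, and the rule itself uses no measured value. The cells were long-term haematopoietic stem cells from mouse bone marrow, sorted as negative for lineage markers, Flk2 and CD48 and positive for Kit, Sca and CD150, and kept overnight in StemSpan SFEM medium. They then received 0 Gy (unirradiated), 0.02 Gy (low dose) or 2.5 Gy (high dose), and RNA was taken 2 hours later. The series asks how the cells respond soon after low doses, with the unirradiated cells as the point of comparison. The labels do not state the strain, age or sex of the mice or how many animals were pooled, and all 3 groups share the sort and the overnight culture.

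Blood stem cells are recognised by combinations of proteins on their surface. Kit, the receptor for stem cell factor, and Flt3 (also called Flk2), the receptor for FLT3 ligand, are related receptor tyrosine kinases. Kit is held at the surface of stem cells and early progenitors, while Flt3 appears as cells become multipotent progenitors. CD150 and CD48 belong to the SLAM family of immunoglobulin-like receptors, and in mouse marrow the first is used to select long-term stem cells and the second to remove progenitors. CD34 is a sialomucin that adult mouse long-term stem cells carry at low levels. The protein C receptor (Procr), the junction adhesion molecule Esam and the angiopoietin receptor Tek (Tie2) are shared between stem cells and blood vessel endothelium.

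The RefSeq promoter table (build GRCm38.p6) held windows for 7 of the 8 genes, all but Esam. The 250 bases before the annotated start are shown for 3 of them. Slamf1 and Cd48 are shown because they are members of 1 gene family used in opposite directions in the sort, and Cd34 because its value differed most between the arrays. Capitals mark matches, on either strand, to GATAA (the core of GATA factor sites), AGGAAG (an ETS factor core), TGTGGT (a RUNX core) or CAGCTG (an E-box).
Slamf1 (chr1:171766882-171767131, plus strand): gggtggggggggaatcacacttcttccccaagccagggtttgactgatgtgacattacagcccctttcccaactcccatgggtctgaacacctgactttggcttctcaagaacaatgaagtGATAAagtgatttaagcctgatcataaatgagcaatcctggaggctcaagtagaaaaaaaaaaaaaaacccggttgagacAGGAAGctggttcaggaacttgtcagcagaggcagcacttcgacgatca
Cd48 (chr1:171681742-171681991, plus strand): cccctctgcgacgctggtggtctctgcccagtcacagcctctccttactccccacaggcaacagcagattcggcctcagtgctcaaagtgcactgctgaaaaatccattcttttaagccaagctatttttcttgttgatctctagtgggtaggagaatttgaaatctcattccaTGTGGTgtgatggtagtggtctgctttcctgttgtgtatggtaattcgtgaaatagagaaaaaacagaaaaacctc
Cd34 (chr1:194938571-194938820, plus strand): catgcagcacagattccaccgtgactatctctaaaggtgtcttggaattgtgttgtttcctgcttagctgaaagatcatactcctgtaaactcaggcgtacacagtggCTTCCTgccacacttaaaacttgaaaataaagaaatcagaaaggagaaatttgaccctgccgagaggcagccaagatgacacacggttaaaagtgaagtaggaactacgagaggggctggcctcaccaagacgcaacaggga

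The Slamf1 window held 1 GATAA and 1 AGGAAG match, with no overlap between them. The Cd48 window held 1 TGTGGT match, and the Cd34 window held 1 AGGAAG match, read as CTTCCT on the strand shown. AGGAAG was also present in both windows of Kit, which overlap, so 4 of the 8 windows of these genes carried it, against 29.5% of all 32851 windows of this length. GATAA was present in 22.6% of all windows, TGTGGT in 14.0% and CAGCTG, found among these genes in Procr alone, in 13.0%. These matches describe the letters only, and whether any of them is a binding site was not tested.

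Values are the authors' log2 values for 1 probe set per gene, and differences are between single arrays, so none has a replicate check and no test was possible. A level minimum of 4.553, the median over named genes of their mean on the 3 arrays, was used to choose genes for counting, and 11593 genes passed it. Of the 8 surface genes, 7 passed and Cd48 did not. Whether a probe set was above background is not known here, so a value near or below the minimum says little about whether the gene was expressed. Because probe sets differ in brightness, no gene's value is set against another's, and a sum over a marker list weights its genes by that brightness.

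None of the 8 genes differed by 2-fold (1 on the log2 scale) in any of the 3 comparisons. Over all genes past the level minimum, 2.47% differed by at least 2-fold between low-dose and unirradiated cells (1.33% higher, 1.14% lower), 1.73% between high-dose and unirradiated cells (1.15% higher, 0.578% lower) and 2.5% between high-dose and low-dose cells, so a count of 0 among 7 genes is near the background. The median difference of the 7 genes from unirradiated cells was 0.05 for the low dose and −0.07 for the high dose, beside 0.04 and 0.02 over all genes past the minimum. Between the irradiated arrays (high dose minus low dose) it was −0.01, beside −0.00. The genes did not share a direction: 5 of 7 lay above 0 in the first comparison and 3 of 7 in each of the others. The first 2 comparisons share the unirradiated array.

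**Figure D1:**
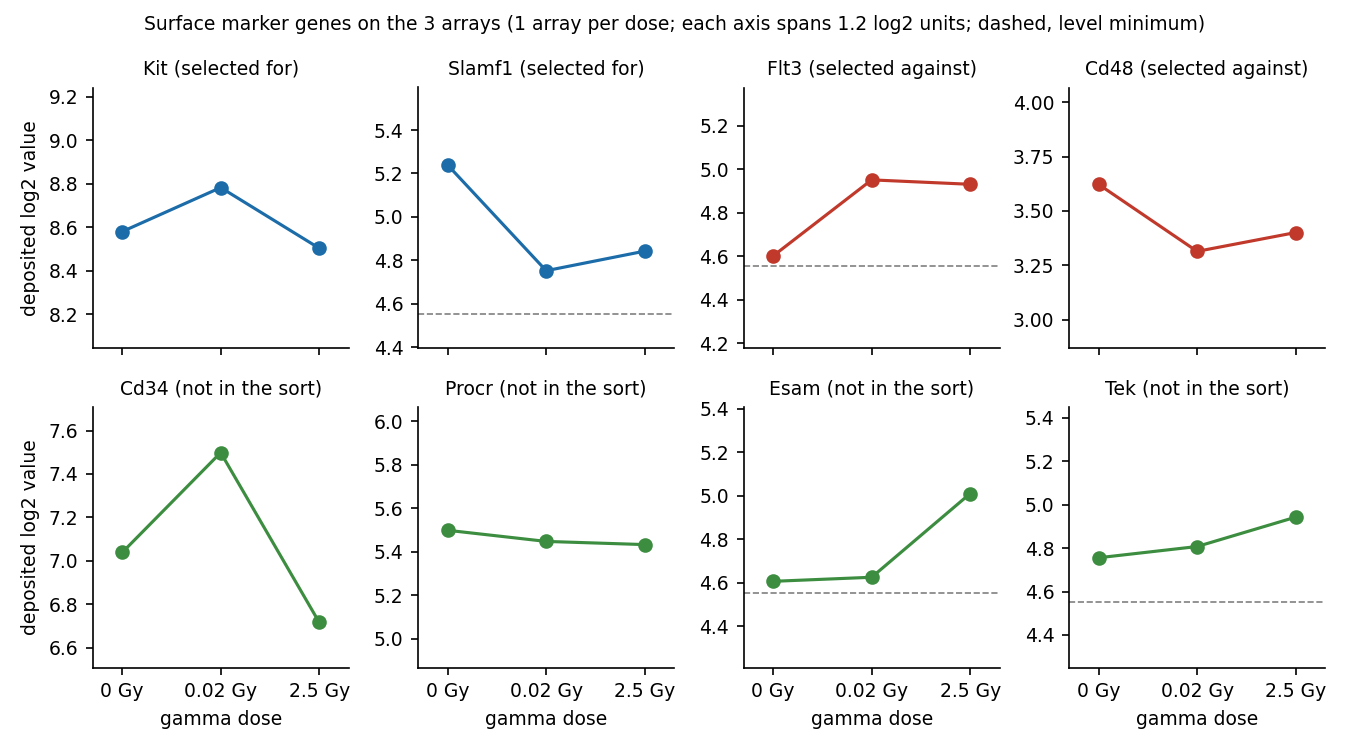
Deposited log2 value (vertical axis) of each surface marker gene at 0, 0.02 and 2.5 Gy (horizontal axis), 1 array per dose, each panel spanning 1.2 log2 units. Cd34 was highest at 0.02 Gy and lowest at 2.5 Gy, Slamf1 was highest without irradiation, and Procr varied by 0.07.

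Among the genes of proteins the sort selected for, Kit was at 8.58 in unirradiated, 8.78 in low-dose and 8.50 in high-dose cells. It was highest at the low dose and lowest at the high dose, and the 2 ends were 1.21-fold apart. A range as wide or wider was found in 65.0% of all genes past the level minimum. Both irradiated arrays were brighter for strongly measured genes as a whole: in the top decile of genes by level, where Kit lies, the median difference from the unirradiated array was 0.21 (low dose) and 0.15 (high dose). With that trend removed by loess, the low-dose difference of Kit was −0.04 in place of 0.20 and its high-dose difference −0.26 in place of −0.08, so its place above the unirradiated value at the low dose depends on the scaling.

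Slamf1, which encodes CD150, was at 5.24 in unirradiated, 4.75 in low-dose and 4.84 in high-dose cells. It was lower on both irradiated arrays, which lay 0.09 apart. The differences from unirradiated cells were −0.49 at the low dose (0.714-fold) and −0.40 at the high dose (0.76-fold), and 18.9% and 22.7% of all genes past the minimum differed by as much in either direction. After loess they were −0.45 and −0.37.

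Of the genes of proteins selected against, Flt3 was at 4.60 in unirradiated, 4.95 in low-dose and 4.93 in high-dose cells. Its unirradiated value lay just above the level minimum, and both irradiated values lay higher. The differences were 0.35 at the low dose (1.27-fold) and 0.33 at the high dose (1.26-fold), which 32.4% and 30.8% of all genes matched or exceeded. Slamf1 and Flt3, a marker selected for and a marker selected against, thus differed from unirradiated cells in opposite directions at both doses, and the gap between their differences was −0.84 (low dose) and −0.73 (high dose). The size of such a gap depended on the pair: it was −0.18 and −0.17 for Slamf1 over Cd48 at these doses, and −0.15 and −0.41 for Kit over Flt3. The unirradiated array enters every gap.

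Cd48 was at 3.62 in unirradiated, 3.31 in low-dose and 3.40 in high-dose cells. All 3 values lay below the level minimum, and its mean was 1.11 below it. Its order over the arrays was that of Slamf1, with the unirradiated value highest and the low-dose value lowest, an order shared by 16.4% of all genes past the minimum.

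Cd34, not used in the sort, differed most. It was at 7.04 in unirradiated, 7.50 in low-dose and 6.72 in high-dose cells, so that the irradiated arrays lay on opposite sides of the unirradiated one. The high-dose value was 0.78 below the low-dose value, a 1.72-fold gap between the highest and the lowest array. Of all genes past the minimum, 5.01% differed by as much between the 2 irradiated arrays. This was the only difference of 1.5-fold or more among the surface genes, against 11.4% of all genes at that size in the same comparison (12.2% for low-dose and 9.51% for high-dose against unirradiated cells). After loess it was −0.73, with 0.26 for low dose minus unirradiated and −0.47 for high dose minus unirradiated, in place of 0.46 and −0.32.

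By distance between the 3 values after each gene's own mean was removed, the genes most like Cd34 over the 3 arrays were Gp5 (distance 0.00539), Carf (0.0167) and Rwdd3 (0.0204). Gp5 encodes a platelet surface glycoprotein. With only 3 arrays such likeness is easily met, since 73 of 10342 protein-coding genes lay within 0.1 of Cd34. Gp5 was at 4.83 in unirradiated, 5.28 in low-dose and 4.51 in high-dose cells. Selp, which encodes P-selectin, had the same order (4.99, 5.48 and 4.61). Ppbp had it too (5.08, 5.09 and 4.39), though its first 2 values were nearly equal. The remaining measured genes of the megakaryocyte list did not. Pf4 (9.05, 9.26 and 9.51) and Itgb3 (6.44, 6.50 and 6.92) were highest at the high dose. Gp9 (6.74, 6.73 and 6.51) was nearly equal on the first 2 arrays, with the unirradiated value highest. Of the 7 markers of mast cells and basophils 2 passed the level minimum. Their summed signal was 7.76, 8.32 and 7.67 on the log2 scale and their median 4.04, 4.18 and 3.90. Mcpt8, a basophil protease gene, was at 5.63, 7.08 and 5.72, highest at the low dose but without the order of Cd34. Gata2, the other gene past the minimum, had that order (6.72, 6.86 and 6.55). Below the minimum, Tpsb2 (4.04, 4.18 and 3.60), Ms4a2 (4.11, 4.13 and 4.08) and Fcer1a (2.46, 2.56 and 2.29) had it too. Cma1 did not, and Cpa3 (3.90, 4.24 and 3.90) was equal on the unirradiated and high-dose arrays. Cma1 and Fcer1a, both of this list of mast cell and basophil markers, were below 3 on every array. Whether such cells take part in the Cd34 values was not tested. In RNA from a whole sort, fewer cells that carry a transcript cannot be told apart from less of it per cell.

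Procr was at 5.50 in unirradiated, 5.45 in low-dose and 5.43 in high-dose cells. It varied least of the 8 genes, with a range of 0.07 that 97.2% of all genes past the minimum matched or exceeded. Esam was at 4.61 in unirradiated, 4.63 in low-dose and 5.01 in high-dose cells. Its first 2 values were nearly equal and the high-dose value stood apart, by 0.40 from the unirradiated array (1.32-fold) and by 0.39 from the low-dose array. Differences of that size were found in 22.0% and 26.2% of all genes. Tek was at 4.76 in unirradiated, 4.81 in low-dose and 4.94 in high-dose cells, in the order of dose but over a range of only 0.19, matched or exceeded by 80.8% of all genes. The same order as in Esam and Tek was found in 17.1% of all genes.

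**Figure D2:**
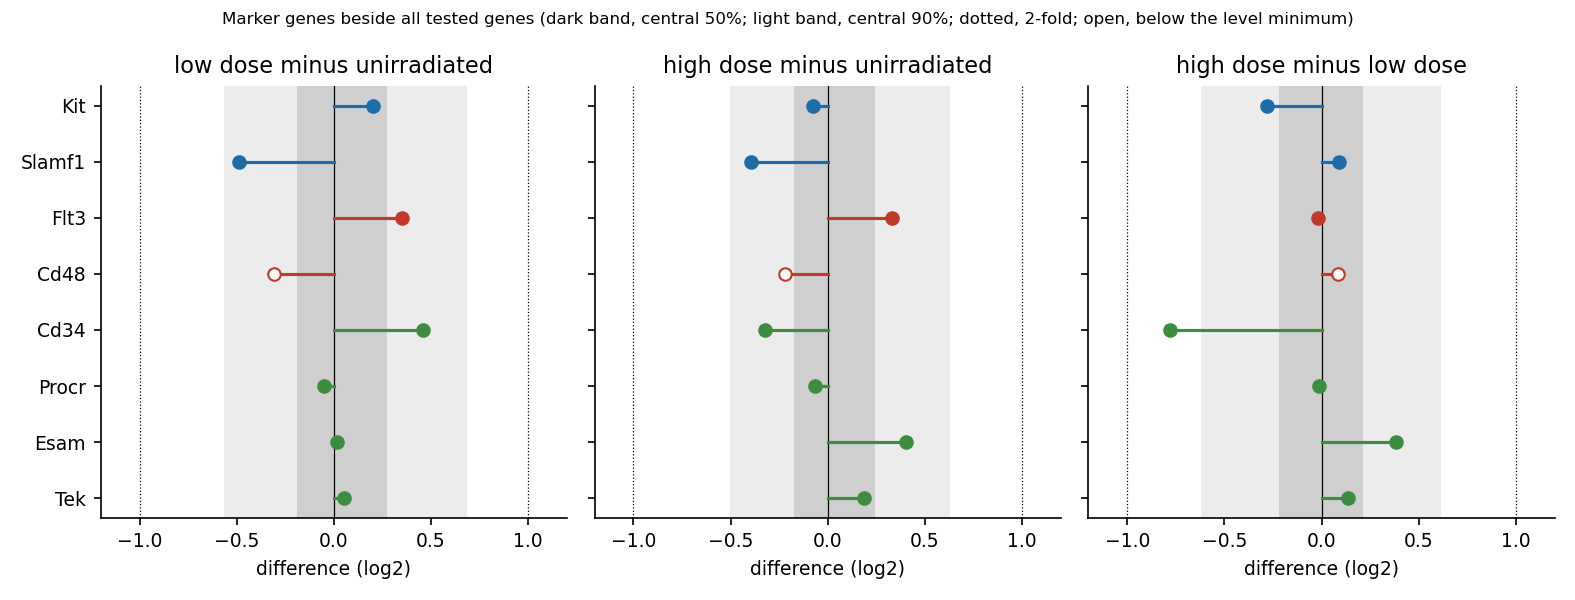
Difference between arrays (horizontal axis, log2) of each surface marker gene in the 3 comparisons, over bands that hold the central 50% and 90% of the 11593 genes past the level minimum. Cd34 lies outside the 90% band for high dose minus low dose at −0.78, every other difference lies inside the band, and none reaches the dotted 2-fold lines.

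The ligands and partners of these receptors were read from a list of 13 genes, of which 11 were measured and 6 passed the level minimum. None of the 6 differed by 2-fold, and 5 were above 0 at the low dose (median 0.46) and 4 at the high dose (median 0.30). Over all genes past the minimum 54.2% and 53.4% were above 0 at these doses, with medians of 0.04 and 0.02. Without a level minimum the medians of the 11 genes were 0.25 (low dose) and 0.28 (high dose). Flt3l, which encodes the ligand of Flt3, was at 6.21 in unirradiated, 6.72 in low-dose and 6.97 in high-dose cells. Like Flt3 itself it was higher on both irradiated arrays, by 0.51 and 0.76. Angpt1, which encodes the Tek ligand angiopoietin-1, was at 6.42 in unirradiated, 6.93 in low-dose and 6.74 in high-dose cells, so it was highest at the low dose. Angpt4, another ligand of Tek, was lower on both irradiated arrays, with differences of −0.26 and −0.27. Tie1, the relative of Tek that modulates its signal, was at 6.31, 6.33 and 6.67, and as in Esam the high-dose value stood apart. After loess the median of the list was 0.26 (low dose) and 0.14 (high dose), with 4 of the 6 genes above 0 at each dose.

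The other 7 SLAM family genes of the list lie in the same region of chromosome 1 as Slamf1 and Cd48, and all 7 are given here whatever their values. Cd84, a receptor that binds itself on neighbouring cells, was at 7.07 in unirradiated, 7.39 in low-dose and 7.03 in high-dose cells. Ly9 was at 4.83, 4.93 and 5.13, and Slamf9 at 5.26, 4.83 and 5.39. These 3 passed the level minimum and none of them had the order of Slamf1. Among the 4 below it, Slamf8 (4.80, 4.29 and 4.40) had the order of Slamf1, and Cd244a, which encodes the receptor of CD48, was highest in unirradiated cells too (4.78, 4.45 and 4.35). Slamf6 was at 3.89, 3.60 and 3.99, and Slamf7 at 3.74, 3.99 and 3.88. The family as a whole therefore showed no common direction at either dose.

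Relatives of Esam among the junction adhesion genes were read from 8 genes, of which 5 passed the minimum. At the high dose 4 of the 5 were above the unirradiated value (median 0.25), and at the low dose 2 of the 5 were (median −0.19). Over all genes past the minimum 53.4% (high dose) and 54.2% (low dose) were above 0, with medians of 0.02 and 0.04. Without a level minimum the medians of the 8 genes were 0.11 (high dose) and −0.05 (low dose). Below the minimum, Jam3 (−0.46) and Podxl2 (−0.31) were lower at the high dose, and Podxl was nearly level (−0.0043). F11r, which encodes the junction adhesion molecule JAM-A, was at 6.27 in unirradiated, 6.39 in low-dose and 7.19 in high-dose cells. Its high-dose value stood apart as in Esam, with a difference of 0.92 from unirradiated cells. Clmp (4.85, 4.59 and 5.08) and Igsf11 (5.31, 5.12 and 5.56) were highest at the high dose too, and lowest at the low dose. Jam2 was at 4.50, 4.93 and 4.80, and Cxadr, the gene of a virus receptor at cell junctions, at 4.83, 4.26 and 4.74. Of the type III receptor kinases related to Kit and Flt3, only Csf1r, the receptor of macrophage colony-stimulating factor, passed the minimum, at 4.85, 4.58 and 5.03.

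Signalling genes downstream of these receptors numbered 40, of which 36 were measured and 33 passed the level minimum. At the low dose 1 was at least 2-fold higher and 0 lower, beside a background of 1.33% higher and 1.14% lower over all genes. That gene was Stat5b, a transcription factor activated below Kit and Flt3, at 4.79 in unirradiated, 5.79 in low-dose and 5.62 in high-dose cells. Its low-dose difference lay at the 2-fold limit, and Stat5a, its close relative, did not follow it, with differences of −0.10 and −0.19. Jak2, the kinase that activates STAT5 below cytokine receptors, was at 6.21, 7.01 and 6.43, highest at the low dose. The adaptor genes Crk (6.42, 5.90 and 6.57) and Nck1 (6.09, 5.61 and 6.24) were lowest there. The phosphatase gene Inpp5d, whose product SHIP1 limits signals of this kind, was at 7.16, 7.60 and 7.19, and Akt2, a kinase of the survival pathway, was higher on both irradiated arrays, by 0.46 and 0.48. Sh2b2, an adaptor that binds Kit, was lower at both doses, by 0.36 and 0.32. The list as a whole had medians of 0.09 (low dose) and 0.10 (high dose), beside 0.04 and 0.02 over all genes, and after loess both were 0.02. After quantile normalization they were 0.02 (low dose) and −0.0033 (high dose), so the sign at the high dose depended on the scaling.

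Other genes of the stem cell surface lay to one side at the low dose. Of 24 genes, 23 were measured and 20 passed the level minimum, and all 20 were above 0 at the low dose, against 54.2% of all genes past the minimum. Their median was 0.38, and none reached 2-fold. After loess, which removes the trend with level, 17 of the 20 were above 0, with a median of 0.25. At the high dose 14 of the 20 were above 0 (median 0.23), and 13 after loess (median 0.11). Of the 20 genes, 16 were lower at the high than at the low dose. Over all 11593 genes past the minimum, 53.4% were above 0 at the high dose. After loess 5765 (low dose) and 5731 (high dose) of them were above 0, and 5838 were lower at the high than at the low dose before scaling.

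The values of single genes of that list varied. Il6st, which encodes the shared interleukin-6 receptor subunit gp130, was at 5.02 in unirradiated, 6.01 in low-dose and 5.91 in high-dose cells. Both irradiated arrays lay above the unirradiated one, by 0.99 and 0.89. Pecam1, the adhesion molecule CD31, was at 6.11, 6.99 and 6.54, also higher on both. Adgrg1, an adhesion G protein-coupled receptor of stem cells, was at 8.01, 8.57 and 8.74. Cdh5, the endothelial cadherin gene, had the order of Cd34, at 4.79, 5.15 and 4.49. Itgb3, an integrin subunit, was at 6.44, 6.50 and 6.92, with the high-dose value apart. Cd82, a tetraspanin gene, was highest at the high dose too (5.95, 6.06 and 6.30), while Alcam, an adhesion molecule gene, was lowest there (6.93, 6.95 and 6.71). Cd63 was nearly level at 10.77, 10.77 and 10.64.

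**Figure D3:**
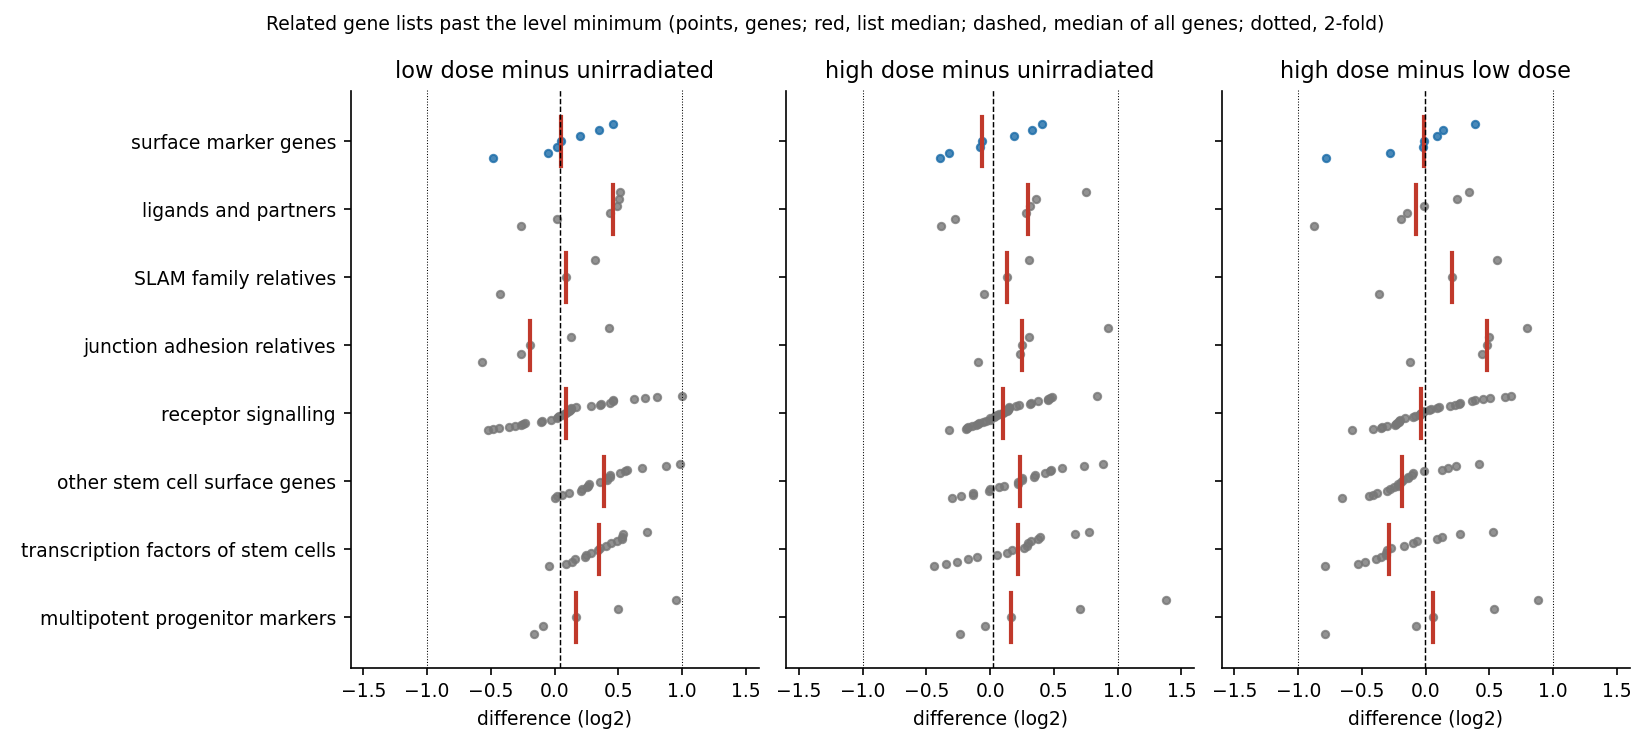
Difference between arrays (horizontal axis, log2) of the genes past the level minimum in the surface marker set and 7 related lists, in the 3 comparisons, with list medians in red. For low dose minus unirradiated, all 20 other stem cell surface genes lie above 0 with a median of 0.38, while the surface marker genes lie on both sides of 0 with a median of 0.05. After loess, which removes the trend with level, 17 of the 20 (median 0.25) and 4 of the 7 surface marker genes (median 0.07) were above 0.

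Transcription factors of stem cells, which include regulators of these surface genes, gave a like picture. Of the 16 past the minimum, 15 were above 0 at the low dose (median 0.35) and 11 at the high dose (median 0.22). Over all genes past the minimum 54.2% and 53.4% were above 0, with medians of 0.04 and 0.02. After loess the counts were 12 and 10 with medians of 0.20 and 0.12, beside 5765 and 5731 of all 11593 genes. Meis1, a homeobox factor, was at 7.05 in unirradiated, 7.58 in low-dose and 6.79 in high-dose cells, the order of Kit and Cd34. Etv6 (7.53, 8.26 and 7.91) and Spi1 (6.59, 7.13 and 6.85) were highest at the low dose and lowest in unirradiated cells. Gfi1b (7.26, 7.51 and 8.04) and Hlf (7.21, 7.62 and 7.88) were highest at the high dose, while Hhex (6.59, 6.67 and 6.15) and Tal1 (6.31, 6.26 and 5.96) were lowest there. Among 5 markers of multipotent progenitors past the minimum, Sox4 was at 5.66, 6.16 and 7.04, which made it 1.38 higher at the high dose than in unirradiated cells. It was the only one of the 5 past 2-fold there, beside a background of 1.15% higher. Cd52, which encodes a small glycosylated surface protein, differed from unirradiated cells by 0.96 (low dose) and 0.16 (high dose). Mpo, the myeloperoxidase gene, was at 5.29, 5.45 and 5.99. Cd33 (−0.09 and −0.04) and Notch1 (−0.17 and −0.24) were lower at both doses, so the 5 markers did not share a direction. Flt3, the progenitor marker of the sort, had its highest value at the low dose and its lowest in unirradiated cells, as Cd52 did, an order found in 20.4% of all genes.

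Markers of cell types that the sort should remove were read as a check of the label. Of 9 T cell genes 3 passed the level minimum, of 6 measured B cell genes 2 did, and Cd3d, Cd3e, Cd3g, Cd79a and Ms4a1 were below it on every array. The 3 T cell genes were Lat, which is also a megakaryocyte gene (7.74 in unirradiated, 8.09 in low-dose and 7.95 in high-dose cells), Cd5 (5.42, 4.74 and 5.30) and Cd8b1 (4.92, 4.44 and 4.84). Cd5 and Cd8b1 were lowest at the low dose and Lat was not, and the median of the 3 was −0.48 there and −0.08 at the high dose, each against unirradiated cells. The B cell genes Cd79b and Pax5 differed from unirradiated cells by at most 0.20. Of 6 NK cell genes 3 passed: Klrb1c (7.04, 6.91 and 6.84), Nkg7 (6.50, 5.97 and 5.88) and Prf1 (6.32, 5.99 and 5.94). All 3 were highest in unirradiated cells and lowest at the high dose, an order found in 13.0% of all genes past the minimum. Slamf1 was highest in unirradiated cells too, but lowest at the low dose. With means below the minimum, Ncr1 (4.63, 4.14 and 4.41) and Klrd1 (3.99, 3.84 and 3.79) were highest in unirradiated cells, and Gzma (2.94, 3.14 and 3.03) was lowest there.

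Of 7 measured erythroid genes 4 passed. Klf1 and Gata1, factors of red cell formation, and Epor, the erythropoietin receptor gene, differed from unirradiated cells by at most 0.20 in size, and Tfrc, the transferrin receptor gene, was at 4.65, 5.08 and 4.53. All 6 measured megakaryocyte genes passed. Their median difference from unirradiated cells was 0.13 (low dose) and −0.28 (high dose), and at 2.5 Gy 4 of the 6 were lower and Pf4 and Itgb3 were higher. Over all 11593 genes past the minimum the medians were 0.04 and 0.02, and 5375 were lower at 2.5 Gy. Of 10 endothelial and stromal genes 4 passed, which bears on Procr, Esam and Tek because endothelium carries them too. Kdr, an endothelial growth factor receptor gene, was at 5.19, 4.68 and 4.84, Cdh5 had the values given above, and the collagen genes Col1a1 (5.13, 4.78 and 5.14) and Col3a1 (4.62, 4.55 and 4.76) were lowest at the low dose. None of these 4 had the order of Esam and Tek, but Tie1, the relative of Tek in the list of ligands and partners, did (6.31, 6.33 and 6.67). Whether endothelial cells take part in the values of Procr, Esam and Tek was not tested.

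Among 8 granulocyte and monocyte genes past the minimum, S100a8 and S100a9 were at least 2-fold higher than in unirradiated cells for both doses. Ly6c2 was so for 2.5 Gy only. The counts were thus 2 of 8 (low dose) and 3 of 8 (high dose). Over all genes past the minimum, 1.33% (low dose) and 1.15% (high dose) were higher by that size. The summed signal of the 11 measured genes was 8.63 in unirradiated, 9.27 in low-dose and 9.43 in high-dose cells on the log2 scale, while their median was 4.85, 4.80 and 5.03. The rest of the list did not move one way: Cebpe differed by 0.18 and Csf3r by −0.52 at the low dose, and Ly6g, whose mean was just below the minimum, by −0.73 (low dose) and −0.85 (high dose). The part of such cells in the values of the surface genes was not tested.

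**Figure D4:**
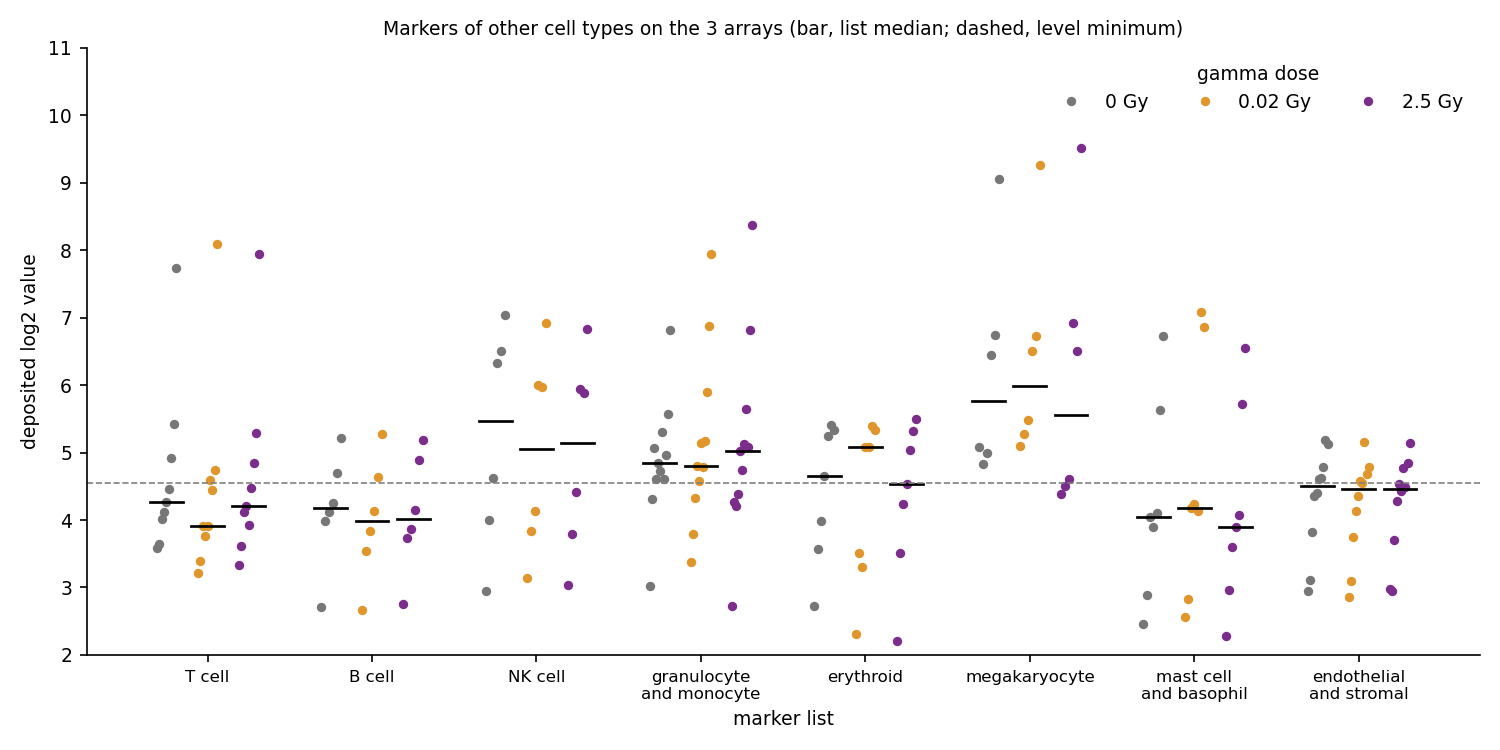
Deposited log2 value (vertical axis) of markers of 8 other groups of cells (horizontal axis) at 0, 0.02 and 2.5 Gy, 1 point per gene and array, with list medians as bars. Most T cell, B cell and mast cell markers lie below the dashed level minimum of 4.553 on every array, while megakaryocyte markers include Pf4 at 9.05 to 9.51.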

How the data were processed

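Sorted mouse long-term haematopoietic stem cells were profiled on 1 array per dose, with biotin-labelled cDNA made by Affymetrix's whole-transcript sense assay, per the labels' protocols. The deposited values were read as log2 from their range, with 1 value for each of 25206 probe sets. Partek is named without version or role, per the submitters' processing notes; how background, scaling, probe summaries and centring were handled is not given in the sources used here. Array medians were 4.60 (unirradiated), 4.54 (low dose) and 4.55 (high dose).

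The platform annotation gave 1 symbol to 23185 probe sets, several to 0 and none to 2021, which were not used. Differences and medians were computed in Python 3.11.15 with pandas 2.3.3. With 1 array per group no test was run, the number of arrays limits precision, and genes were counted by a fixed 2-fold size among those with a mean of at least 4.553. The share of all genes that differed by as much as a surface gene is a description. The counting and scaling steps were tested on simulated data. Alternatives were quantile normalization, median centring, loess (statsmodels 0.14.6, span 0.3), other level minimums, fold sizes of 1.5 and 3, and means.

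The surface genes and the 16 other lists (169 of 183 symbols measured) were chosen with earlier results of these data known. Named were all surface genes; in each list the genes past 2-fold and up to 2 highest and 2 lowest per comparison; and the 3 genes most like a surface gene with a range of at least 0.5. Other SLAM genes, and listed genes given as below the minimum, are named outside that rule, after their values were seen.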

Additional observations from a re-analysis of the deposited data

How the results depend on the processing

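No paired analysis was possible because a single array per dose leaves nothing to pair and no test was run. The count of surface genes past 2-fold was 0 in each comparison under all 3 scalings, both other level minimums and a fold size of 3. At 1.5-fold it was 1 for high dose minus low dose (Cd34) and 0 in the other comparisons, which follows from the smaller size. With the level minimum at the 75th percentile only Kit and Cd34 were left, and the median difference was 0.33 for the low dose and −0.20 for the high dose, each minus unirradiated, and −0.53 for high dose minus low dose, since fewer genes entered. The other alternatives moved these medians by less than 0.1, though the mean in place of the median was 0.01 for high dose minus unirradiated, and without a level minimum the median was 0.04 for high dose minus low dose, both of the opposite sign to the values reported. Of 72 differences of single surface genes under the 3 scalings, 64 moved by less than 0.1 and 3 changed sign. These were Kit at the low dose after quantile normalization (−0.06) and loess (−0.04), and Procr at the low dose after median centring (0.02). How far signals lay above background is unknown, so values near the level minimum (Flt3, Esam, Tek, Slamf1) and below it (Cd48) are the least certain.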

Other observations

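Mcpt8 was 1.46 higher at the low dose than in unirradiated cells and 1.36 lower at the high dose than at the low dose, while Gata2, a factor of both stem cells and mast cells and the other gene of its list past the level minimum, differed by 0.14 and −0.31 in those comparisons. Elane, the neutrophil elastase gene, was at 4.96 in unirradiated, 5.89 in low-dose and 5.08 in high-dose cells. It was highest at the low dose, where 6 of the 8 granulocyte and monocyte genes past the minimum lay above the unirradiated value. Over all genes past the minimum 54.2% did. Among genes of that list below the minimum, Camp was higher at the low dose (0.37), while Ly6g (−0.73) and Ltf (−0.51) were lower. Ppbp, a platelet chemokine gene, was nearly equal without irradiation and at the low dose (5.08 and 5.09) and lower at the high dose (4.39). It was 1 of 4 megakaryocyte genes of 6 that were lower at the high dose than in unirradiated cells. Of all 11593 genes past the minimum, 5375 were lower there.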
